A study of Mus musculus with 4 samples.

Results

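The genes described here encode the histones, the proteins around which DNA is wrapped, together with the linker histones that bind where DNA enters and leaves each wrapped unit. They were chosen by symbol, as all entries of the deposited count tables named for a linker, H2A, H2B, H3 or H4 histone, without pseudogenes marked as such in the symbol. The rule found 78 of 56691 genes. Of these, 65 are replication-dependent genes, 11 are variant genes, 1 is H2ax and 1 is H3f3aos, an antisense transcript of H3f3a that the symbol rule also catches.

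The libraries were made from poly(A) RNA of Ter119+ cells of mouse bone marrow, sorted by an antigen of the erythroid lineage and labelled as the erythroid stage. Of the 4 libraries, 2 carry the genotype label Med16 fl/fl, floxed alleles of the gene for a subunit of Mediator, a coactivator of RNA polymerase II, and 2 carry the label Med16 KO. All have a time label of 3 weeks, and the study asks how MED16 acts in erythroid differentiation. The sources used here do not give the Cre driver, the deleted exons, or whether 3 weeks is an age or a time after deletion. Nothing in the labels says that the 2 libraries of a genotype came from separate mice, so p-values measure the spread of these libraries alone, and that spread may be technical.

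Replication-dependent histone genes lie mostly in clusters, are transcribed in S phase, and give messages that end in a conserved stem-loop instead of a poly(A) tail. The stem-loop is bound by SLBP, and U7 snRNP directs the cut just after it. Variant histones are made from genes outside the clusters, with introns in many of them and with poly(A) tails, through and outside S phase. H2ax, whose product marks DNA breaks when phosphorylated, can give both kinds of message. Poly(A) selection therefore recovers replication-dependent messages only in part, such as those extended past the stem-loop or given a tail during differentiation, and the levels below are not the full level of these messages.

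The stem-loop was looked for in the transcript models of GENCODE M21, as the letters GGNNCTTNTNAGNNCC on the sense strand, a pattern that was chosen after seeing the sequences. It was found in 43 of 65 replication-dependent genes (66.2%), or 43 of the 54 whose model is not a coding region alone (79.6%). These 54 include H2ac14, which the annotation types as a pseudogene and whose model has only 352 bases. H2ax holds it, 0 of 11 variant genes do, and 120 of 21877 other protein-coding genes do (0.549%). The lines below show the sites of genes whose poly(A) counts are described further on, 5′ to 3′ with the stem-loop in capitals.
H1f2: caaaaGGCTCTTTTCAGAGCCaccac
H1f3: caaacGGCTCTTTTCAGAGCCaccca
H1f4: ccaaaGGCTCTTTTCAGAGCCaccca
H4c9: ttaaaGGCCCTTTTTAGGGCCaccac
H4c11: ctaaaGGTCCTTTTCAGGACCaccac
H2ax: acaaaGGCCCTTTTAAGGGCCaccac
The models of these genes run on beyond the site. After the stem-loop come 840 bases in H1f2, 4884 in H1f3, 1153 in H1f4, 330 in H4c9, 385 in H4c11 and 822 in H2ax.

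The promoters of linker histone genes were examined for short motifs because these genes moved in opposite directions (below). RefSeq promoters (build GRCm38.p6, 250 bases before the start, both strands) were matched by symbol for 68 of 78 members. CCAAT, the core of the NF-Y site, was present in 6 of 6 replication-dependent linker histone promoters, TATAAA in 4 of 6 and AAACACA, the linker histone box, in 5 of 6. Over all 27025 genes with a promoter the shares were 34.5%, 13% and 6.22%. The octamer ATTTGCAT was found in 6 of 14 H2B promoters (42.9%) and in 6 of 17 H2A promoters (35.3%), against 1.61% of all genes. Some sites count in both shares, because the windows of H2ac1 and H2bc1, H2ac8 and H2bc8, and H2ac12 and H2bc12 overlap. The H2A and H2B shares are therefore not separate. CCAAT was found in 3 of 11 H4 promoters, and in 6 of 10 variant promoters. None of the 4 motifs contains another. The last 150 bases before the start are shown for a gene that fell, a second gene that fell and the gene that rose, with the motifs in capitals.
H1f2 (chr13:23738657-23738806, plus strand): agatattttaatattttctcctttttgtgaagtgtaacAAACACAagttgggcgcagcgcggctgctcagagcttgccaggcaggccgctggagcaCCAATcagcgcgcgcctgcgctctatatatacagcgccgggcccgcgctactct
H1f4 (chr13:23622559-23622708, minus strand): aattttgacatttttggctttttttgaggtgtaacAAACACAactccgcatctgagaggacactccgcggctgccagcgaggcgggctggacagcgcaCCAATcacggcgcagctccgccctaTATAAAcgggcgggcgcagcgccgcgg
H1f0 (chr15:79028062-79028211, plus strand): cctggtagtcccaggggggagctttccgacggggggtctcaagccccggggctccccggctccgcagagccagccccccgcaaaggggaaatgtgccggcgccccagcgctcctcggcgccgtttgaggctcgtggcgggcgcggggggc
H1f0 has 0 of the 4 motifs in its 250 bases, which says only that these letters are not in this window. H1f10, which was not called, also has 0 of the 4. H1f1, not called either, has CCAAT and TATAAA. Whether the motifs go with the direction of change was not tested.

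Counts assigned to genes totalled 6749196 to 7216333 per library, so that 1 count is worth 0.139 to 0.148 CPM, a gene's counts relative to the library total, and 3 counts, the limit that a count of 0 allows, equal 0.416 to 0.444 CPM. Levels are CPM after TMM scaling, which balances libraries of different makeup, and are listed for fl/fl replicates 1 and 2 and then for KO replicates 1 and 2. Med16 itself had 164, 127, 16 and 30 counts, and was lower in both KO libraries (log2 fold change -2.64, SE 0.34, adjusted p = 4.6e-05). Of the marker lists of other cells, the neutrophil and megakaryocyte lists had the most calls. Over all genes tested, 8.5% were called higher and 9.89% lower. Neutrophil granule and progenitor markers were called higher in 9 of 9 genes (summed level 2688 to 2768 CPM in fl/fl and 5366 to 5480 in KO), late neutrophil markers in 9 of 10 (12963 to 13127 against 16536 to 16862) and megakaryocyte markers in 10 of 11 tested (97.7 to 110 against 240 to 245, with Gp1bb at 0 counts in all libraries). Monocyte and macrophage markers (4 of 11 higher, 1 lower), stem and progenitor markers (2 of 5 higher) and B cell markers (1 of 10 higher) had fewer calls. For T and NK cell markers, 0 of 5 were called (1 at an unadjusted p under 0.05, 0 by DESeq2). Summed levels still rose in both KO libraries for monocyte and macrophage markers (573 to 588 CPM in fl/fl and 715 to 717 in KO). They also rose for stem and progenitor markers (50.8 to 54.9 against 72.3 to 95.9) and T and NK cell markers (36.1 to 37.8 against 47.2 to 49). Those of B cell markers overlapped (240 to 255 against 231 to 252). Of 14 erythroid markers, all detected, 10 were called lower and 3 (Hba-a1, Hba-a2 and Alas2) higher. Their part in the results below was not tested. In bulk RNA, fewer cells of a type and less RNA per cell cannot be told apart.

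Most histone genes that changed were lower in Med16 KO, and 1 linker histone gene, H1f0, was higher. Of 78 members, 52 passed the filter on low counts: 43 replication-dependent genes, 7 variant genes, H2ax and H3f3aos. By edgeR's quasi-likelihood test, with Benjamini-Hochberg adjustment over all 13052 genes tested and a threshold of 0.05, 10 of 43 replication-dependent genes fell and 0 rose. The background is 9.89% of all genes tested called lower and 8.5% called higher, 18.4% in all. Of 7 variant genes, 3 fell and H1f0 rose. The median log2 fold change was -0.55 over replication-dependent genes, -0.16 over variant genes and 0.02 over all genes tested. At an unadjusted p under 0.05, 14 replication-dependent genes were lower and 0 higher, and DESeq2 called 9 lower and 0 higher, against a background of 10.2% and 7.67%. The count of 10 moved with the libraries used. It was 1 without fl/fl replicate 1, 2 without fl/fl replicate 2 and 18 without KO replicate 1, while the background then was 5.53%, 5.05% and 15.7%.

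The direction was more uniform than the calls. Of 43 replication-dependent genes, 34 had a log2 fold change below zero, within a range of -2.95 to 0.99, against 6331 of all 13052 genes tested. In 21 of 43 (48.8%) both KO libraries lay below both fl/fl libraries, against 28.2% of all genes tested. In 1 gene both KO libraries lay above, against 29.4% of all genes tested. By family, the calls were 4 of 5 tested linker histone genes, 3 of 11 H2B genes and 3 of 11 H4 genes lower, against 9.89% of all genes tested. For H2A, 0 of 7 were called lower (1 at an unadjusted p under 0.05, 0 by DESeq2), and for H3, 0 of 9 (0 and 0). No tested H2A or H3 gene had more than 74 counts in any library. Of the called genes, H1f2, H2bc4 and H4c9 reached 1393, 293 and 302 counts, although H2bc15, H4c11 and H4c12 had at most 45. Whether H2A and H3 differ from the other families was not tested. The family medians were -0.71 for linker histones, -0.7 for H4, -0.57 for H2B, -0.44 for H2A and -0.3 for H3.

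**Figure D1:**
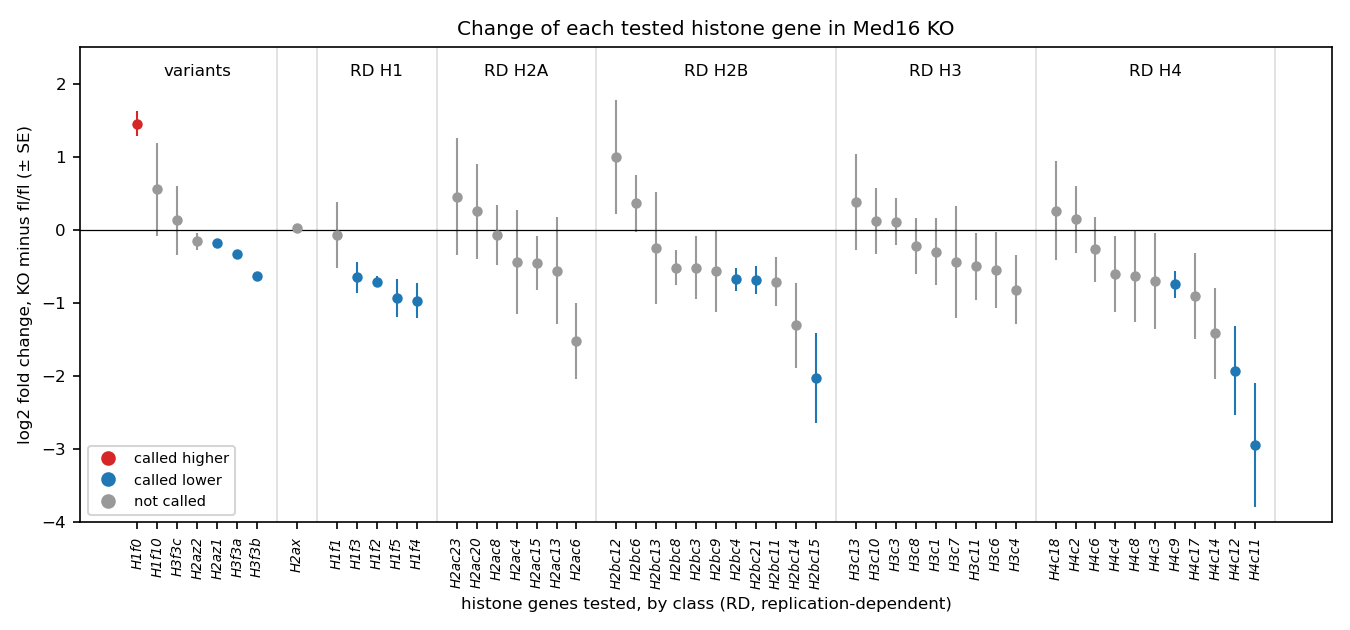
Log2 fold change of Med16 KO against Med16 fl/fl for each histone gene tested (without the antisense H3f3aos), by class and family, with bars for the SE and colour for the call at an adjusted p under 0.05. H1f0 stands at 1.45, above all other called genes, which lie between -2.95 and -0.18.

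Taken as one pool, replication-dependent messages made up 0.0571%, 0.0553%, 0.0392% and 0.0367% of counts assigned to genes. Variant messages made up 0.347%, 0.345%, 0.278% and 0.279%. The groups do not overlap in either pool. The mean share fell from 0.0562% ± 0.00127 (SD, n = 2) to 0.0379% ± 0.00177 for replication-dependent genes, a ratio of 0.675, and from 0.346% ± 0.00122 to 0.279% ± 0.000773 for variant genes, a ratio of 0.806. These sums have no test. H3f3a and H3f3b held 21137 of 25012 variant counts in fl/fl replicate 1 and 15533 of 19335 in KO replicate 1. The variant ratio therefore follows mostly this pair, while H1f0 rose. Within the replication-dependent pool the ratio of shares was 0.629 for H4, 0.631 for linker histones, 0.695 for H2B, 0.757 for H2A and 0.88 for H3.

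Linker histones bind the nucleosome from outside and compact chromatin, and their makeup differed between the genotypes. H1f0 encodes H1.0, the linker histone that accumulates in cells that leave the cycle or differentiate. Its level was 19.6 and 18.7 CPM in the fl/fl libraries and 57.1 and 47.8 CPM in the KO libraries, from 139, 129, 408 and 326 counts. Both KO libraries lay well above both fl/fl libraries. The fold was 2.74 (log2 fold change 1.45, SE 0.17, adjusted p = 1.6e-05), and H1f0 stayed called under all 11 alternative settings (a second tool, another scaling, other filters, a replicate block, offsets for GC content or length, and each library left out), between 1.31 and 1.56. None of its sequence is shared with another gene in runs of 50 bases. Its model overlaps Gm49544 on the opposite strand along 163 of 2055 exon bases, and this transcript also rose (32, 38, 70 and 114 counts, log2 fold change 1.4, SE 0.35, adjusted p = 0.011). Without a known strand setting, reads of the overlap cannot be told apart.

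H1f2, a cluster gene and the linker histone with the most counts, moved the other way. It was at 197, 184, 121 and 112 CPM, from 1393, 1274, 867 and 761 counts. Both KO libraries were lower, with a log2 fold change of -0.71 (SE 0.08, adjusted p = 1.5e-05), and the call held under all 11 alternatives (-0.87 to -0.65). H1f3 was at 23.3, 22.7, 14.1 and 15.3 CPM. H1f4 was at 19.5, 22.3, 10.5 and 10.9 CPM. H1f5 was at 16.7, 18.4, 9.8 and 8.51 CPM. In each of these cluster genes the KO libraries lay below the fl/fl libraries, with log2 fold changes of -0.65 (SE 0.21, adjusted p = 0.047), -0.97 (SE 0.24, adjusted p = 0.0094) and -0.93 (SE 0.26, adjusted p = 0.02). The call of H1f3 held under only 4 of 11 alternatives, and was lost with DESeq2 (adjusted p = 0.052) and with a GC content offset (adjusted p = 0.19). Calls of H1f4 and H1f5 were lost when either fl/fl library was left out. H1f4 shares 496 bases with H2bc6 on the same strand, so reads there could be split or left out. H1f1 and H1f10, named after their values were seen, did not pass the test (log2 fold change -0.07, adjusted p = 0.94, and 0.55, adjusted p = 0.63). H1f6, H1f7, H1f8 and H1f9, which are known from germ cells, had at most 1 count in any library.

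As a share of all linker histone counts, H1f0 made up 6.83% (exact Clopper-Pearson 95% interval 5.77 to 8.01) and 6.88% (5.78 to 8.13) in fl/fl, and 25.6% (23.4 to 27.8) and 23.7% (21.5 to 26) in KO. The intervals cover counting error only. H1f2 made up 68.5%, 68%, 54.3% and 55.3%. Thus H1f2 led in all 4 libraries, and H1f0 moved from a minor share to the second place. Per length of exon, the share of H1f0 was 5.17%, 5.27%, 20.2% and 18.9%, and that of H1f2 was 68.2%, 68.5%, 56.5% and 58.2%.

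**Figure D2:**
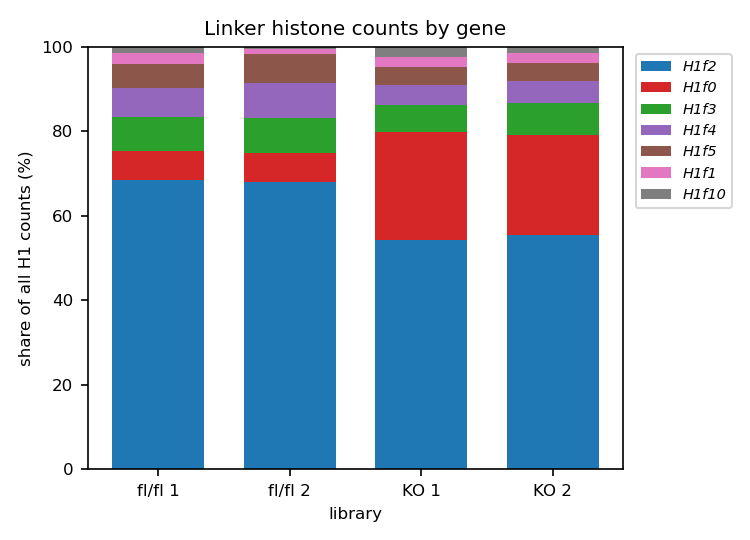
Share of all linker histone counts (percent, 0 to 100) held by each linker histone gene in each of the 4 libraries. The H1f0 segment grows from 6.83% and 6.88% in fl/fl to 25.6% and 23.7% in KO, and the H1f2 segment shrinks from 68.5% and 68% to 54.3% and 55.3%.

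H2B, with H2A, forms the outer pair of dimers of the histone core. H2bc4 was at 41.4, 39.8, 24.4 and 26.3 CPM (log2 fold change -0.68, SE 0.16, adjusted p = 0.0083). H2bc21, a gene outside the large cluster that is known to give polyadenylated messages, was at 34.3, 30.4, 22.5 and 17.6 CPM (-0.69, SE 0.19, adjusted p = 0.022). H2bc15 had 45, 34, 5 and 14 counts (-2.03, SE 0.61, adjusted p = 0.03). All 3 were lower in both KO libraries. Windows of 50 bases shared with another gene make up 0% of H2bc21, 30.1% of H2bc4 and 86.4% of H2bc15, whose value is uncertain for that reason. Calls of all 3 were lost when either fl/fl library was left out, and that of H2bc21 also with a GC content offset (adjusted p = 0.057). H2bc8 and H2bc11, next in level, were at 21.5, 19.7, 16.8 and 11.7 CPM and at 9.88, 11.1, 4.9 and 7.92 CPM and did not pass (adjusted p = 0.15 and 0.17).

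H4, with H3, forms the inner tetramer of the core. H4c9 was at 42.6, 37.6, 21.4 and 26.4 CPM, and both KO libraries were lower (log2 fold change -0.75, SE 0.18, adjusted p = 0.0073), a call lost only without fl/fl replicate 1. H4c12 had 43, 27, 7 and 11 counts (-1.93, SE 0.61, adjusted p = 0.038), and H4c11 had 20, 28, 5 and 1 counts (-2.95, SE 0.85, adjusted p = 0.024). Both calls were lost when either fl/fl library was left out. Shared windows make up 28.9% of H4c9, 71.5% of H4c12 and 24.6% of H4c11. Among the 7 tested H2A genes, H2ac6 had the lowest log2 fold change (-1.52, adjusted p = 0.057, 52, 41, 9 and 23 counts). It did not pass, but was called under 4 of 11 alternatives, among them the replicate block (-1.59, adjusted p = 0.023), and was named after its value was seen.

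Several replication-dependent genes with few counts differed widely between libraries of 1 genotype. H4c18 had 29, 26, 7 and 58 counts. H4c17 had 35, 51, 39 and 7 counts, and H4c3 had 29, 37, 36 and 5. In these 3 genes the KO libraries lay apart. In H2bc12 the fl/fl libraries did, with 2, 24, 26 and 26 counts (log2 fold change 0.99, SE 0.78, adjusted p = 0.44). These genes were named after their values were seen, and none passed the test with all libraries, although H4c3 and H4c17 did without KO replicate 1 (-2.67, adjusted p = 0.0013, and -2.57, adjusted p = 0.00017). H4c18 passed in opposite directions without KO replicate 1 (1.1, adjusted p = 0.024) and without KO replicate 2 (-2, adjusted p = 0.021). Of 43 replication-dependent genes tested, 11 were over 3-fold apart between the KO libraries and 1 between the fl/fl libraries. The chi-square between libraries of a genotype averaged 6.48 per gene in KO and 2.24 in fl/fl. Over all genes it was 6.63 per degree of freedom in KO and 2.73 in fl/fl, so the KO pair lay further apart there too. This measure grows with depth, and the share of all genes over 3-fold apart was not counted. Whether the histone genes spread more than other genes of like depth was not tested.

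**Figure D3:**
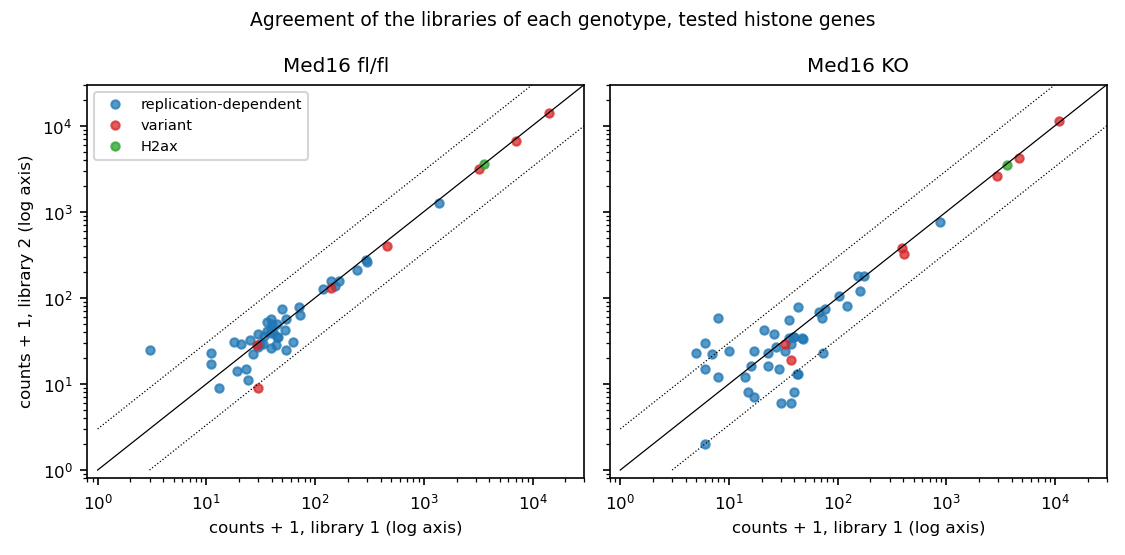
Counts plus 1 of each tested replication-dependent gene (blue), variant gene (red) and H2ax (green) in library 1 (horizontal) against library 2 (vertical) of the same genotype, both axes logarithmic, with a solid line at equality and dotted lines at 3-fold. By counts, 11 replication-dependent genes lie over 3-fold apart in KO and 1, H2bc12, in fl/fl.

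The replication-dependent genes were also grouped by where their model ends, with bounds set after the models were seen. In 20 of them the model runs over 100 bases past the stem-loop, and these held 62.4%, 61.1%, 59.2% and 57.6% of all replication-dependent counts. Of the 16 tested, 5 fell, with a median of -0.67, beside 9.89% of all genes tested called lower. In 23 the model ends within 100 bases, and these held 13.5%, 15.6%, 17.5% and 19.7% of counts. Of the 15 tested, 0 fell (1 at an unadjusted p under 0.05, 0 by DESeq2), with a median of -0.27. The 11 genes with no stem-loop pattern in a model that is not a coding region alone, H2ac14 among them, had 3 of 5 lower and a median of -0.68. The 11 with a coding-only model had 2 of 7 lower and a median of -0.5. Depth and shared sequence also went with these groups. The first holds H1f2, the replication-dependent gene with the most counts, and most of the pool's counts. Medians of the tested genes were 33.2 counts per library in the first group and 30.5 in the second, but the deepest genes differed. Called in the first were H1f2 (761 to 1393 counts), H4c9 (153 to 302), H1f3 (101 to 165), H1f4 (74 to 154) and H4c11 (1 to 28). In the second, no tested gene had more than 77 counts in any library. Shared windows had medians of 24.7% in the first and 59.4% in the second. The difference between the groups was not tested.

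Variant histones carried most histone counts in these poly(A) libraries. H3f3a and H3f3b both encode H3.3, the H3 variant placed outside replication, and are spliced genes with poly(A) tails. H3f3a was at 1993, 2019, 1530 and 1651 CPM. H3f3b was at 991, 967, 645 and 620 CPM. Both were lower in both KO libraries, with log2 fold changes of -0.33 (SE 0.04, adjusted p = 1.8e-05) and -0.63 (SE 0.04, adjusted p = 8.4e-08). Both calls held under all 11 alternatives, within -0.4 to -0.2 for H3f3a and -0.7 to -0.5 for H3f3b. H3f3a made up 66.8%, 67.6%, 70.3% and 72.7% of the counts of the pair. The pair made up 98.4%, 98.2%, 97.9% and 98.1% of all H3 counts, which describes poly(A) messages and not H3 protein.

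H2az1 and H2az2 encode H2A.Z, the H2A variant of promoters and enhancers. H2az1 was at 455, 448, 411 and 385 CPM (log2 fold change -0.18, SE 0.05, adjusted p = 0.031), a call lost with library size scaling (adjusted p = 0.14), with a GC content offset (adjusted p = 0.071) and when either fl/fl library was left out. H2az2 was at 64.8, 57.5, 55 and 54.7 CPM and did not pass (-0.16, SE 0.12, adjusted p = 0.44). H3f3c, which the annotation types as a pseudogene, was at 3.95, 3.9, 4.48 and 4.11 CPM (adjusted p = 0.9), with 73.8% of its windows shared. The antisense H3f3aos had 29, 11, 17 and 13 counts (adjusted p = 0.74).

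H2ax had the most counts of the histone genes with the stem-loop and was not called. It was at 501, 515, 510 and 517 CPM, so the genotypes overlapped, with a log2 fold change of 0.02 (SE 0.05, adjusted p = 0.86), which turned to -0.29 (adjusted p = 0.0012) with a GC content offset. Its share of all H2A counts was 47.3%, 48.8%, 51% and 52.5%. The replication-dependent H2A genes held 3.55%, 3.3%, 2.42% and 2.9% of H2A counts. H2ax shares 6.14% of its windows with another gene.

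Levels were compared between genes per kb of exon. Averaged over the 4 libraries, H3f3a was highest at 513 CPM per kb, followed by H2ax at 369, H3f3b at 271 and H2az1 at 239. The order of the last pair turned with the genotype: H2az1 was at 256, 252, 231 and 217, below H3f3b in fl/fl and above it in KO. H2ax was above H3f3b in every library (362, 372, 369 and 374 against 333, 325, 217 and 208). The highest replication-dependent gene was H1f2, at 126, 118, 77.8 and 71.6 CPM per kb. Next came H4c9 at a mean of 44, H2bc4 at 28.5 and H2bc8 at 28.2, of which the last pair did not differ beyond their spread. Of the replication-dependent H2A genes, H2ac15 was highest in every library (19, 20.6, 16.7 and 11.9). Of the H3 genes, H3c3 had the highest mean (11, 17, 14.7 and 15.6) but did not lead in fl/fl replicate 1, where H3c11 was at 13.4. H1f0 was at 9.55, 9.08, 27.8 and 23.3 CPM per kb. Of the 78 members, 8 had 0 counts in all libraries, 5 of them replication-dependent.

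**Figure D4:**
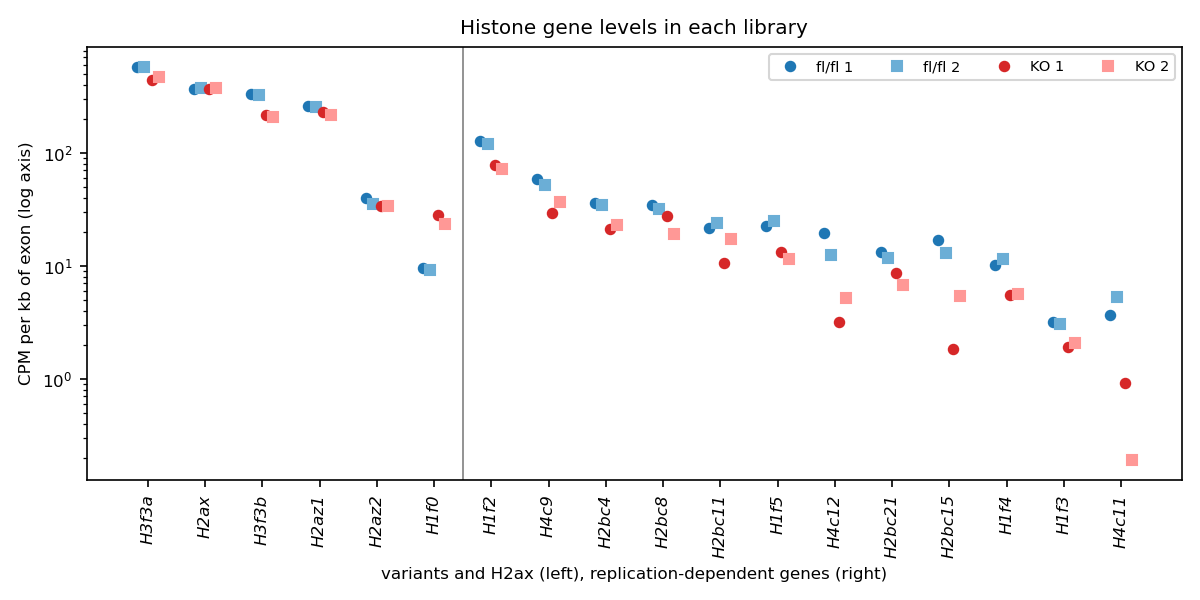
CPM per kb of exon (logarithmic axis) of histone genes that were called or most abundant, with variant genes and H2ax on the left, replication-dependent genes on the right and 1 point per library. H3f3a, H2ax, H3f3b and H2az1 lie above the replication-dependent genes shown in every library, and H1f2 leads the latter.

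S phase genes moved in the same direction as the replication-dependent genes. Of 35 tested, 18 fell and 0 rose (20 and 0 at an unadjusted p under 0.05, 18 and 0 by DESeq2), with a median of -0.25. Among all genes tested, 9.89% were called lower and 8.5% higher. Pcna, the sliding clamp, went from a mean of 678 to 508 CPM (log2 fold change -0.42, SE 0.05, adjusted p = 1.5e-05). Rrm2, a subunit of ribonucleotide reductase, went from 867 to 676 CPM (-0.36, SE 0.04, adjusted p = 2.4e-05). The summed level of replication-dependent histone genes was 581, 563, 381 and 363 CPM, and that of the S phase genes 8275, 8185, 6846 and 6901 CPM. Histone messages thus equalled 7.03%, 6.88%, 5.57% and 5.26% of the S phase sum, lower in both KO libraries, a difference that was not tested. Against the summed variant messages they equalled 16.5%, 16%, 14.1% and 13.1%.

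Genes that drive histone transcription fell in 5 of 14 tested and rose in 0 (9 and 0 at an unadjusted p under 0.05, 5 and 0 by DESeq2). The background was again 9.89% called lower and 8.5% called higher. Ccne2, a cyclin of S phase entry, was at 140, 151, 78.4 and 86.8 CPM (log2 fold change -0.81, SE 0.09, adjusted p = 1.5e-05). Ccna2, the S phase cyclin, was at 742, 784, 508 and 542 CPM (-0.54, SE 0.05, adjusted p = 1.8e-06). Nfyb and Nfya, subunits of the CCAAT-binding NF-Y, also fell (-0.58, adjusted p = 0.0021, and -0.42, adjusted p = 0.014), as did Casp8ap2, a protein of the histone locus body (-0.46, adjusted p = 0.038). The call of Casp8ap2 held under 6 of 11 alternatives and was lost with library size scaling (adjusted p = 0.063), with either offset and when either fl/fl library was left out, and that of Nfya was lost without fl/fl replicate 1 (adjusted p = 0.13). Npat, the cyclin E target that activates histone genes, did not pass (-0.44, adjusted p = 0.083). Nfya and Casp8ap2 were named after their values were seen, and the list shares members with the S phase list.

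For 3′ end formation, 1 of 17 genes fell and 3 rose, beside a background of 9.89% and 8.5%, and DESeq2 called 1 lower and 1 higher. The gene that fell was Slbp, which binds the stem-loops shown above, with 2461, 2279, 1800 and 1485 counts (log2 fold change -0.53, SE 0.07, adjusted p = 7.7e-05). Snrpb, an Sm protein, rose by 0.26 (adjusted p = 0.035), Sympk, the scaffold of the cleavage complex, by 0.26 (adjusted p = 0.037) and Cpsf3, its nuclease, by 0.52 (adjusted p = 0.047, named after its value was seen). Each of the 3 higher calls held under 6 of 11 alternatives and was lost with no low-count filter and when either fl/fl library was left out. Sympk stood at 0.07 (adjusted p = 0.63) with a GC content offset and Snrpb at 0.15 (adjusted p = 0.23) with a transcript length offset. In the decay list, 2 of 11 fell and 1 rose, with the same counts by DESeq2. Tut7, which adds uridines to histone messages, went from 517 to 332 CPM (-0.64, adjusted p = 1.4e-06), and Eri1, the exonuclease that trims their ends, from 110 to 76.8 CPM (-0.52, adjusted p = 0.0014). Lsm4, of the ring that binds the uridine tail, rose by 0.64 (adjusted p = 0.003), a call lost with a GC content offset (adjusted p = 0.067) and without fl/fl replicate 2 (adjusted p = 0.12).

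Chaperones that place histones behind the replication fork fell in 4 of 14 genes and rose in 0 (7 and 0 at an unadjusted p under 0.05, 4 and 0 by DESeq2). These were Rbbp4, a CAF-1 subunit (log2 fold change -0.37, adjusted p = 0.00027), Mms22l (-0.77, adjusted p = 0.001), Supt16, a FACT subunit (-0.44, adjusted p = 0.0041), and Asf1b, named after its value was seen (adjusted p = 0.014, lost when either fl/fl library was left out). Among 22 genes for variant deposition and other chaperones, 7 fell and 1 rose, with the same counts by DESeq2. For both chaperone lists the background was 9.89% of all genes tested called lower and 8.5% called higher. Anp32e, which removes H2A.Z, was at 393, 378, 244 and 257 CPM (-0.62, adjusted p = 2.3e-06). Dek (-0.38, adjusted p = 1e-05) and Ubn2, of the HIRA complex that places H3.3 (-0.76, adjusted p = 0.00043), fell too. Znhit1, a subunit of the complex that places H2A.Z, was the gene that rose, by a fold of 1.59 (adjusted p = 0.039, named after its value was seen). Its call held under 8 of 11 alternatives and was lost with a transcript length offset (adjusted p = 0.079), with a GC content offset (adjusted p = 0.25) and without fl/fl replicate 2 (adjusted p = 0.56).

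Some histone genes lie outside the symbol rule, and 6 of 15 in the tables were tested. Macroh2a1, the large H2A variant of silent chromatin, rose from 767 and 755 counts to 1211 and 1150 (log2 fold change 0.64, SE 0.08, adjusted p = 3.5e-05). Cenpa, the H3 variant of centromeres, was at 238, 263, 210 and 196 CPM and fell (-0.3, SE 0.07, adjusted p = 0.0078), a call lost without fl/fl replicate 2 (adjusted p = 0.2). H2aw, named after its values were seen, had 28, 29, 10 and 12 counts, the lowest log2 fold change of these 6 genes, and did not pass (-1.36, adjusted p = 0.14). H4f16, H2aj and H2bu2 did not pass either (-0.99, adjusted p = 0.073, 0.06, adjusted p = 0.68, and -0.41, adjusted p = 0.13).

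**Figure D5:**
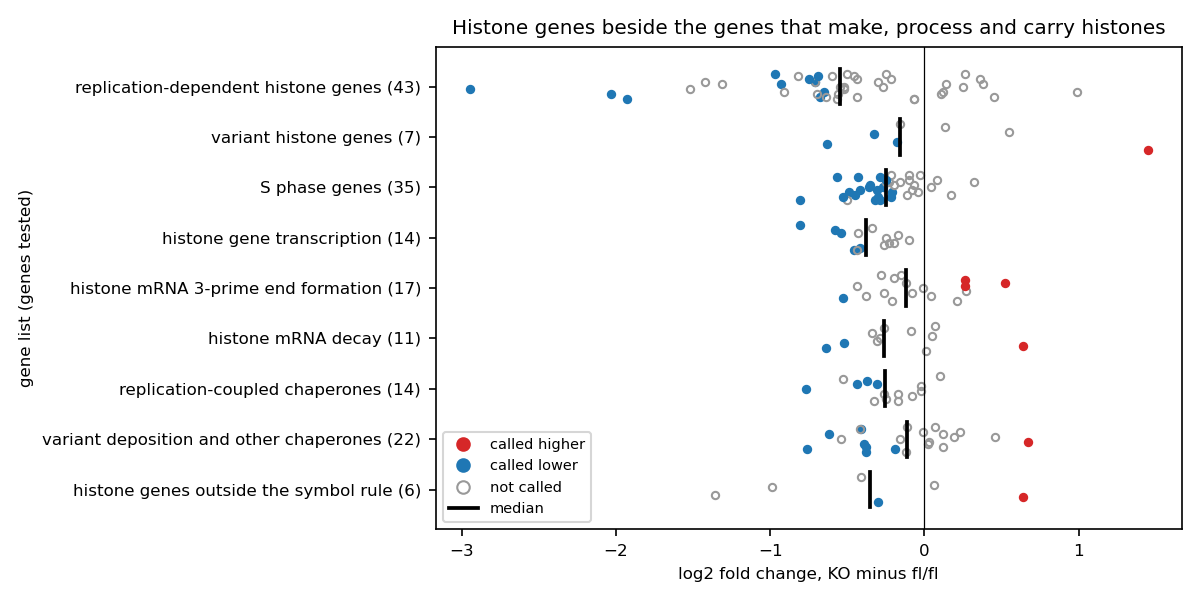
Log2 fold change of each tested gene in the histone classes and pathway lists, with the median of each list as a bar and colour for the call. Replication-dependent genes have the lowest median of these lists (-0.55), S phase genes stand at -0.25 and variant genes at -0.16.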

How the data were processed

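Each library has a table of gene counts in whole numbers, as deposited by the authors. The submitters' processing notes name the build GRCm39 and the tools HTSeq 0.12.4, HISAT2 2.1.0, HOMER, FastQC 0.11.7 and DESeq2. Neither the strand setting nor the annotation release is given in the sources used here. The 5 rows naming no gene stayed out of library sizes and tests: in library order, no feature took 36%, 36.7%, 35.8% and 35.8% of reads, non-unique alignment 26.4%, 25.3%, 24.3% and 23.6%, ambiguity 2.54%, 2.58%, 2.96% and 2.93%, low quality 1.79%, 1.96%, 1.69% and 1.7%, and no alignment 1.05%, 0.826%, 2.69% and 3.27%. Dropping non-unique reads lowers counts of near-identical histone copies.

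The analysis used edgeR 4.0.16 under R 4.3.3, with filterByExpr, TMM (factors 0.982, 0.981, 1.03 and 1.01), and a two-sided quasi-likelihood test of genotype over all 4 libraries, Benjamini-Hochberg adjusted over 13052 genes (common biological coefficient of variation 0.125, 2 residual and 13.1 prior degrees of freedom). Groups came from the genotype label. The script was tested on simulated data. Alternatives were DESeq2 1.42.0, library size scaling, no low-count filter, at least 10 counts in every library of a genotype, a replicate block, transcript length and GC content offsets, and leaving out each library.

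Transcript models (GENCODE M21, GRCm38) were matched by Ensembl identifier for 52073 of 56691 genes and all 78 members; their build differs from that of the counts, so they gave lengths, shared windows, overlaps and stem-loops but no gene coordinates.

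Named were Med16, every tested histone gene (in full where called or among the 5 most abundant of a class, otherwise by range and count), and of each pathway list the 3 genes of smallest adjusted p and the most abundant, where their values add to the text. The members and lists were chosen with earlier results of these data known.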

Additional observations from a re-analysis of the deposited data

How the results depend on the processing

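The fall of replication-dependent genes kept its direction in the class median, which lay between -0.64 and -0.53 when 1 library was left out and between -0.65 and -0.5 under the other alternatives; for variant genes the ranges were -0.2 to -0.08 and -0.26 to -0.09. H1f0, H1f2, H3f3a and H3f3b were called under all 11 alternatives. Calls of replication-dependent genes as lower numbered 1 to 18 with 1 library left out and calls as higher 0 to 1, the latter H4c18 without KO replicate 1 (1.1, adjusted p = 0.024 by edgeR's quasi-likelihood test). In these fits the share of all genes tested called lower also went down without a fl/fl library and up without a KO library. The share called higher did the same. The spread in these fits comes from the other genotype, and the lone library is assumed to vary alike. The other alternatives gave 8 (GC content offset) to 12 (replicate block) lower calls. Under those settings 8.76% and 11.5% of all genes tested were called lower, against 9.89% in the main fit. The ratio of shares was 0.653 to 0.698 for replication-dependent genes and 0.804 to 0.808 for variant genes with 1 library left out, and without globin counts 0.681 and 0.813.

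The sign turned for genes near zero in the main fit or with few counts. H2ax went to -0.01 with no low-count filter, -0.07 with a transcript length offset and -0.29 with a GC content offset. With the GC content offset H2ax passed the test as lower (above), so its lack of a call depends on that setting. With 1 library left out H2ax lay between -0.02 (without fl/fl replicate 1) and 0.03, at -0.01 without KO replicate 2. H1f10 ranged from -0.1 (without fl/fl replicate 2) to 1.7, at -0.01 without KO replicate 1, H1f1 went to 0.57 without fl/fl replicate 1, and H4c3 ranged from -2.67 (without KO replicate 1) to 0.08 (without KO replicate 2). H4c18 went to -0.17 with the replicate block and to -2 without KO replicate 2 (adjusted p = 0.021). The cause was not tested.

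With the replicate number as a block, 12 replication-dependent genes were called lower, while lower calls over all genes tested also went from 9.89% to 11.5%. Among the 12 was H2ac6 (-1.59, adjusted p = 0.023), and outside the rule H4f16 was called (-1.01, adjusted p = 0.035). The labels used here do not say what libraries of the same number share. Their deviations from the genotype means had a correlation of -0.0102 over 13052 genes. With 2 libraries per genotype this cannot decide whether they were paired.

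At these depths genes with few counts are limited: of the called replication-dependent genes, H2bc15, H4c11 and H4c12 rest on at most 45 counts in any library. Genes at 0 counts could not be assessed.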
